A study of Mus musculus with 8 samples.

Results

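Oxidative phosphorylation genes code for the 5 protein complexes of the inner mitochondrial membrane that carry out respiration. They were taken by gene name (names that begin with Nduf, Uqcr, Cox4 to Cox8 or Atp5, the 4 genes Sdha to Sdhd, and the mitochondrially coded mt-Nd, mt-Co, mt-Cytb and mt-Atp genes, pseudogenes left out). A level of at least 1 TPM (transcript abundance per gene length, on a scale shared by all libraries) in at least 2 libraries was required. Of 105 such names, 101 passed, 88 of them nuclear and 13 mitochondrial, among 13126 genes that met the same level and 48709 that were listed. Cox8b, Cox8c and Cox7b2, isoforms of other tissues, were listed at 0 TPM in every library, and Ndufa4l2 reached at most 0.110 TPM. Cox4i2, Cox6a2, Cox7a1 and Atp5s were the lowest genes that passed, Cox7a1 with 1.35 to 2.96 TPM and Atp5s with 1.36 to 7.56 TPM over the 8 libraries.

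The study sequenced polyadenylated RNA from 5 groups of mouse bone marrow cells in 8 libraries. MDP, the monocyte-dendritic cell progenitor, is 1 library labelled wild type. The cMoP (cMOP in the labels), the common monocyte progenitor that follows it, has 2 libraries labelled wild type and described as FL_FL, a floxed allele. Monocytes with much Ly6C on their surface (Ly6Chi) have 2 libraries that carry the same labels as the cMoP libraries, and monocytes with little (Ly6Clo) have 1 library labelled wild type. MDP and Ly6Clo are not described as FL_FL. Cell stage and this label thus cannot be told apart in cMoP over MDP or in Ly6Clo over Ly6Chi. A further 2 libraries are Ly6Chi monocytes labelled as knocked out for Upf2, a core factor of nonsense-mediated decay, written Upf2 KO Ly6Chi here. All animals or cells were labelled healthy. Cre driver, age and strain are not stated in the sources at hand. Replicates are not said to be separate animals, so the p-values reflect the spread among these libraries only, which may be technical. A cell type tag calls the cells a monocytic cell line, which conflicts with the bone marrow source name.

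Complex I takes electrons from NADH and complex II takes them from succinate. Both pass them to ubiquinone, and complex III passes them on to cytochrome c. Complex IV hands them to oxygen, and complex V, the ATP synthase, uses the resulting proton gradient to make ATP. Complexes I, III, IV and V combine nuclear-coded subunits, imported from the cytosol, with a few subunits coded by the mitochondrial DNA, which is transcribed as long RNAs that are then cut. Complex II is wholly nuclear coded. Bone marrow progenitors divide, whereas monocytes have mostly left the cell cycle, and in many cell types levels of these genes are set together by a few shared regulators.

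The deposited expression table gives no depth. The intron tables of the same libraries hold 28925018 to 37833159 spliced reads each, and 11106 to 12635 genes reached 1 TPM. Of the marker lists, Flt3 was highest in MDP, Mpo and Elane in cMoP, Fn1 in the Ly6Chi groups, and Treml4 and Ace in Ly6Clo. Kit and Cd34 were also highest in MDP, Ms4a3 in cMoP, Ccr2 in Ly6Chi, and Cd36, Nr4a1, Itgal and Spn in Ly6Clo. Some listed markers did not follow the labels. Csf1r and Cx3cr1 of the MDP list were highest in Ly6Clo, so that this list summed to 914 TPM in MDP and to 2248 TPM in Ly6Clo, and Ly6c2 of the Ly6Chi list had 3439 and 4057 TPM in Ly6Chi and 4875 and 3518 TPM in cMoP. Replicate 2 of cMoP stood apart, with 6.09 exon-intron boundary reads per 100 spliced reads against 8.32 to 11.6 in the other libraries, and the lowest median log2 level, 3.65 against 3.88 to 4.20. Upf2 had 20.4 and 22.5 TPM in Upf2 KO Ly6Chi and 20.2 and 18.2 TPM in Ly6Chi. A level over the whole gene does not check for a deleted exon, and the floxed exons are not stated in the sources at hand. Log2 changes below are on log2(TPM + 1), centred on the median of each library, with their standard errors, and calls are at an adjusted p under 0.05 over all 13126 genes (limma, Benjamini-Hochberg). In bulk RNA, fewer cells that express a gene and less of its RNA per cell cannot be told apart.

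The 88 nuclear genes together made up 2.07% of all transcripts in MDP, 2.28% and 2.84% in the cMoP libraries, 1.70% and 1.73% in Ly6Chi, and 1.29% in Ly6Clo. Their summed level was thus highest in both cMoP libraries and lowest in Ly6Clo. In Upf2 KO Ly6Chi it was 2.19% and 2.01%, against 1.70% and 1.73% in Ly6Chi, without overlap. The 13 mitochondrial genes made up more, 6.60% in MDP, 6.15% and 4.56% in the cMoP libraries, 4.34% and 3.60% in Ly6Chi, and 3.45% in Ly6Clo. That sum was highest in MDP, and did not follow the nuclear sum at the cMoP stage. It was 2.75% and 3.59% in Upf2 KO Ly6Chi against 4.34% and 3.60% in Ly6Chi. The mitochondrial sum rests in part on mt-Atp8, and its ratio to the nuclear sum is given below with and without that gene. Atp5b, the catalytic beta subunit of ATP synthase, was the most abundant nuclear member in both progenitors, with 1038 TPM in MDP and 1254 and 1871 TPM in cMoP.

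**Figure D1:**
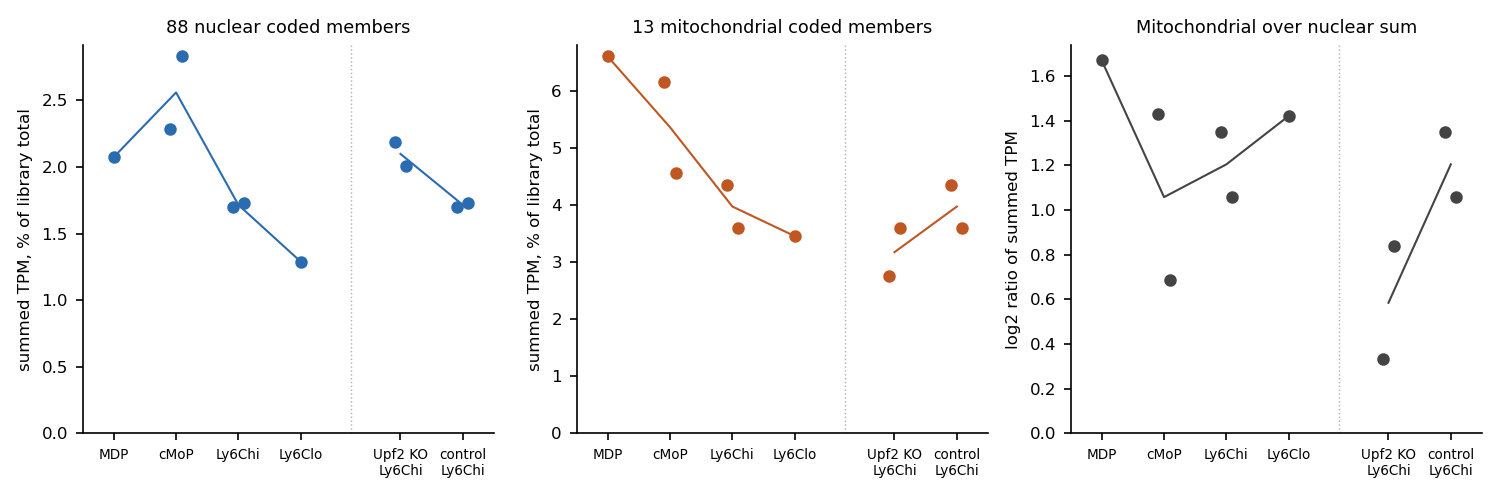
Summed TPM of the 88 nuclear and the 13 mitochondrial oxidative phosphorylation genes as a percentage of the library total (left and middle panels) and the log2 ratio of both sums (right panel), with 1 point per library and lines through group means. The nuclear sum stands at 2.28% and 2.84% in the cMoP libraries, above the 1.29% to 2.19% of all other libraries, while the mitochondrial sum is highest in MDP at 6.60%.

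In cMoP over MDP, 1 member passed the test. Cox6a2, the heart and muscle isoform of complex IV subunit 6a, had 0.790 and 1.58 TPM in cMoP against 37.7 TPM in MDP. Both cMoP libraries lay far below the MDP library, and the gene fell by 3.79 ± 0.37 (log2 ± SE, limma adjusted p = 0.00608). No member rose, where 3.11% of all genes rose and 2.25% fell. With an unadjusted p under 0.05 there were 21 members, of which 20 had a positive change. These are 20.8% and 19.8% of the members, where 23.8% of all genes had such a p and 12.8% had it with a positive change. The median change was 0.64 for the nuclear members and 0.07 for the mitochondrial ones, beside 0.10 for all genes. The nuclear median was 0.26 without centring and 0.20 after quantile normalisation. By role the nuclear medians ran from 0.39 for complex II to 0.81 for complex III. Spliced reads leaned to the 3′ side by 0.53 and 0.82 in cMoP and by 0.31 in MDP, as the median over 5880 genes of the log2 ratio of reads in the 3′ to those in the 5′ part of the gene. Members are short, with a median of 711 bases against 2077.5 for tested genes that have an annotated length, and non-members of up to 1000 bases had a median change of 0.29, those over 3000 bases -0.10. The part of this lean in the differences was not tested, here or below. Ndufb5, an accessory subunit of the membrane arm of complex I, had 255 and 329 TPM in cMoP against 177 TPM in MDP. For Cox7a2, the widely expressed subunit 7a isoform, the cMoP libraries had 236 and 323 TPM and MDP had 173 TPM. For these genes both cMoP libraries lay above the MDP library, with changes that did not pass over all genes. Calls and sizes both rest on which cMoP library is used. The nuclear median was 0.94 without replicate 1 and 0.32 without replicate 2. Siglech, a plasmacytoid dendritic cell gene, had 0.0800 and 0.0400 TPM in cMoP against 14.2 TPM in MDP, and the sum of 7 dendritic cell markers was 106 and 146 TPM in cMoP against 257 TPM in MDP. The part of such cells in the Cox6a2 difference was not tested.

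In Ly6Chi over cMoP, 74 of the 101 members fell and 1 rose. Over all genes 34% fell and 25.6% rose. The median change was -0.86 for the nuclear members and -0.93 for the mitochondrial ones, against -0.14 for all genes. On centred values, Ly6Chi and cMoP libraries did not overlap for 94 members, 91 of them lower and 3 higher in Ly6Chi, where 46.7% of all genes were lower without overlap and 36.4% were higher. In TPM, 82 members were lower in Ly6Chi without overlap and 5 were higher, against 34.2% and 46.7% of all genes. Those that fell came from every role. They were 6 of 7 core subunits of complex I, 20 of its 29 other subunits and 5 of 7 assembly factors. Further falls were in 3 of 4 subunits of complex II, 6 of 8 of complex III and 12 of 16 nuclear genes of complex IV. The rest were 13 of 17 Atp5 genes and 9 of 13 mitochondrial genes. The Atp5 genes were counted for complex V, though Atp5sl among them matches by name only. The count of 74 was 24 without Ly6Chi replicate 1, 21 without Ly6Chi replicate 2, 90 without cMoP replicate 1 and 64 without cMoP replicate 2. The nuclear median was -0.55 without cMoP replicate 2. Calls were not equally firm by role. Without either Ly6Chi replicate, the calls of the complex I core subunits were lost, as were most of its other subunits, while those of its assembly factors held. The medians without Ly6Chi replicates 1 and 2 in turn were -0.81 and -0.85 for the core subunits and -1.36 and -1.55 for the assembly factors. Of the mitochondrial genes 4 fell after quantile normalisation, with a median of -0.34, and none fell without Ly6Chi replicate 2.

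**Figure D2:**
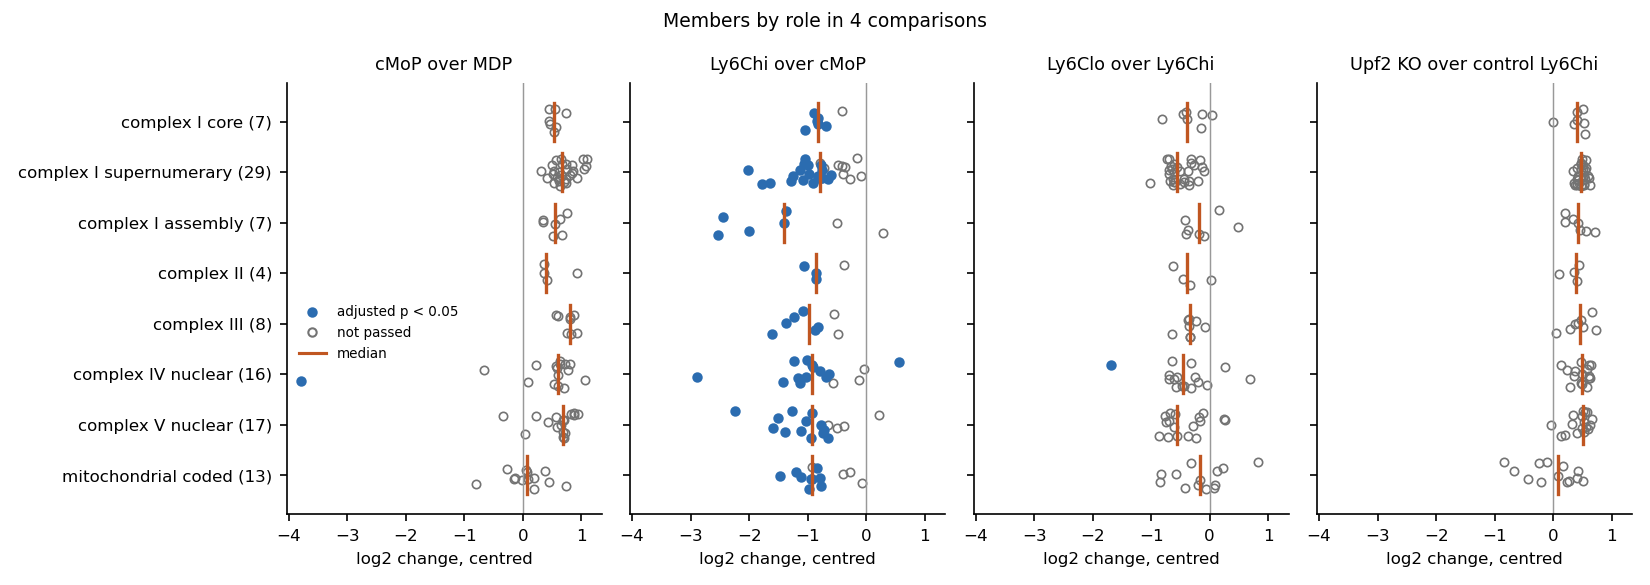
Log2 change of each member (x axis, centred on each library's median) by role (rows, with the number of genes), 1 panel per comparison, where filled points passed at an adjusted p under 0.05 (limma) and bars are role medians. In Ly6Chi over cMoP the medians lie between -1.40 (complex I assembly factors) and -0.78 (other complex I subunits), while in cMoP over MDP and in Upf2 KO Ly6Chi over Ly6Chi the nuclear role medians lie above 0, of which that of complex II in cMoP over MDP turned to -0.030 after quantile normalisation and to -0.010 without mitochondrial genes in the scaling.

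The assembly factors of complex I, proteins that help to build it but are not part of the finished enzyme, held the lowest median by role, -1.40. Ndufaf4 (ENSMUSG00000028261, chr4:24898083-24905001, plus strand, mm10) had 6.59 and 7.01 TPM in Ly6Chi against 23.0 and 52.5 TPM in cMoP, and fell by 2.53 ± 0.46 (limma adjusted p = 0.00569). Ndufaf2 (ENSMUSG00000068184, chr13:108002715-108158623, minus strand) had 9.54 and 9.08 TPM in Ly6Chi against 36.1 and 52.8 TPM in cMoP, and fell by 2.45 ± 0.31 (limma adjusted p = 0.00182). Ndufaf2 is a paralog of the complex I subunit Ndufa12, which had 83.5 and 88.2 TPM in Ly6Chi against 196 and 284 TPM in cMoP and fell by 1.78 ± 0.30 (limma adjusted p = 0.00456). For all 3 genes both Ly6Chi libraries lay below both cMoP libraries. Ndufaf6, needed to assemble complex I in human cells, had 5.39 and 7.48 TPM in Ly6Chi and 18 and 28.02 TPM in cMoP, and fell by 2.01 ± 0.33 (limma adjusted p = 0.00427). Ndufaf1 fell by 1.38 ± 0.27 and Ndufaf5 by 1.40 ± 0.28 (limma adjusted p = 0.0071 and 0.0075). Ndufaf3 and Ndufaf7 did not pass. Ndufaf7, a methyltransferase, had 24.7 TPM in each Ly6Chi library against 15.5 and 16.1 TPM in cMoP, so that in TPM both Ly6Chi libraries were the higher ones. Each fall named here passed in every fit that left out 1 replicate.

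Among the core subunits of complex I, which carry its redox centres, Ndufv1, the NADH-binding subunit, had 87.5 and 87.2 TPM in Ly6Chi and 128 and 121 TPM in cMoP, and fell by 0.84 ± 0.17 (limma adjusted p = 0.00768). Ndufs1, an iron-sulphur subunit, fell by 0.82 ± 0.21 (limma adjusted p = 0.0172). The changes of the other subunits of complex I ranged from -2.02 to -0.09. Ndufab1, the mitochondrial acyl carrier protein, which also serves fatty acid and lipoic acid synthesis, had 92.5 and 97.6 TPM in Ly6Chi against 232 and 406 TPM in cMoP, and fell by 2.02 ± 0.37 (limma adjusted p = 0.00577). Ndufa5, on the matrix arm, had 60.3 and 55.0 TPM in Ly6Chi against 109 and 189.7 TPM in cMoP, and fell by 1.64 ± 0.36 (limma adjusted p = 0.0114). At the other end Ndufa6 had 229 and 248 TPM in Ly6Chi and 189.5 and 213 TPM in cMoP. The Ly6Chi values were the higher ones in TPM for Ndufa6, while its centred change was the one nearest to 0 and did not pass. Without Ly6Chi replicates 1 and 2 in turn, the limma adjusted p of Ndufv1 was 0.0623 and 0.0501 and that of Ndufs1 0.0836 and 0.0858. That of Ndufa5 was 0.0525 without replicate 2.

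In complex II, Sdha, the flavin-bearing subunit that oxidises succinate, had 137 and 127 TPM in Ly6Chi against 198 and 182 TPM in cMoP, and fell by 0.86 ± 0.14 (limma adjusted p = 0.00415). The membrane anchors Sdhc and Sdhd fell by 0.86 ± 0.17 and 1.07 ± 0.27 (limma adjusted p = 0.00845 and 0.0168). Sdhb, the iron-sulphur subunit, had 175 and 174 TPM in Ly6Chi and 163 and 198 TPM in cMoP. Its TPM overlapped between the groups, and its change of -0.38 ± 0.22 did not pass (limma adjusted p = 0.187). In complex III the small subunits Uqcr11 and Uqcr10 fell by 1.61 ± 0.26 and 1.37 ± 0.24 (limma adjusted p = 0.0039 and 0.00488). Uqcr11 had 190.2 and 197 TPM in Ly6Chi against 409 and 544 TPM in cMoP. Uqcrc1, a large subunit on the matrix side, fell by 0.82 ± 0.21 (limma adjusted p = 0.0187), and Uqcrfs1, the Rieske iron-sulphur protein, did not pass at -0.55 ± 0.24 (limma adjusted p = 0.09). Without Ly6Chi replicates 1 and 2 in turn, the limma adjusted p was 0.0642 and 0.0520 for Sdhc, 0.0842 and 0.0676 for Sdhd, and 0.101 and 0.0836 for Uqcrc1.

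Complex IV held the member with the largest fall and the member that rose. Cox4i2 (ENSMUSG00000009876, chr2:152754173-152765037, plus strand), the subunit 4 isoform that is best known from lung and from cells short of oxygen, had 0.17 and 0.10 TPM in Ly6Chi against 4.32 and 7.35 TPM in cMoP. It fell by 2.89 ± 0.33 (limma adjusted p = 0.00127), a value that the added 1 TPM holds down at this low level. Both Ly6Chi values lay under the required 1 TPM, so the gene became a member only through libraries where it was higher. Its fall and its rank thus rest in part on that rule. Cox4i1, the common isoform, had 687 and 716 TPM in Ly6Chi against 775 and 885 TPM in cMoP, and did not pass (-0.57 ± 0.22, limma adjusted p = 0.0698). Cox5a, a nuclear subunit on the matrix side, had 257 and 262 TPM in Ly6Chi against 466 and 659 TPM in cMoP, and fell by 1.43 ± 0.29 (limma adjusted p = 0.00831). Ndufa4, named for complex I but counted as a complex IV subunit, fell by 1.17 ± 0.26 (limma adjusted p = 0.0106). Cox6a2 fell further, to 0.190 and 0.110 TPM in Ly6Chi against 0.790 and 1.58 TPM in cMoP (-1.24 ± 0.30, limma adjusted p = 0.0151). It too was under 1 TPM in both Ly6Chi libraries and met the level rule through libraries where it was higher. Cox7a2l (ENSMUSG00000024248, chr17:83501918-83517330, minus strand), a protein related to subunit 7a that joins complexes III and IV into supercomplexes, had 385 and 384 TPM in Ly6Chi against 244 and 172 TPM in cMoP. It rose by 0.57 ± 0.16 (limma adjusted p = 0.0268), and both Ly6Chi libraries lay above both cMoP libraries. Without Ly6Chi replicates 1 and 2 in turn, the limma adjusted p was 0.128 and 0.156 for Cox7a2l, 0.0581 and 0.0556 for Ndufa4, and 0.0602 and 0.0625 for Cox6a2.

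In the ATP synthase, Atp5g1 (ENSMUSG00000006057, chr11:96068852-96075670, minus strand), which codes for the c subunit of the membrane ring, had 142 and 147 TPM in Ly6Chi against 428 and 687 TPM in cMoP, and fell by 2.24 ± 0.33 (limma adjusted p = 0.00292). Atp5g3 and Atp5g2, which code for the same mature protein, fell by 1.51 ± 0.29 and 1.12 ± 0.18 (limma adjusted p = 0.00737 and 0.0041). Atp5b had 634 and 651 TPM in Ly6Chi against 1254 and 1871 TPM in cMoP, and fell by 1.59 ± 0.32 (limma adjusted p = 0.00831). Atp5a1, the alpha subunit, fell by 1.03 ± 0.21 (limma adjusted p = 0.00831, and 0.0555 and 0.0535 without Ly6Chi replicates 1 and 2 in turn). Atp5c1, the gamma subunit of the central stalk, had 391 and 381 TPM in Ly6Chi and 391 and 478 TPM in cMoP and did not pass. The ratio of Atp5b to Atp5c1 TPM was thus 1.62 and 1.71 in Ly6Chi against 3.21 and 3.92 in cMoP. Atp5s, known as coupling factor B, had 1.38 and 1.62 TPM in Ly6Chi against 4.89 and 3.59 TPM in cMoP and fell by 1.39 ± 0.16 (limma adjusted p = 0.00117). Atp5sl matches by name only, since its human counterpart is an assembly factor of complex I. It had 56.0 and 51.5 TPM in Ly6Chi against 41.97 and 31.1 TPM in cMoP, and did not pass, with both Ly6Chi libraries above both cMoP libraries in TPM.

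**Figure D3:**
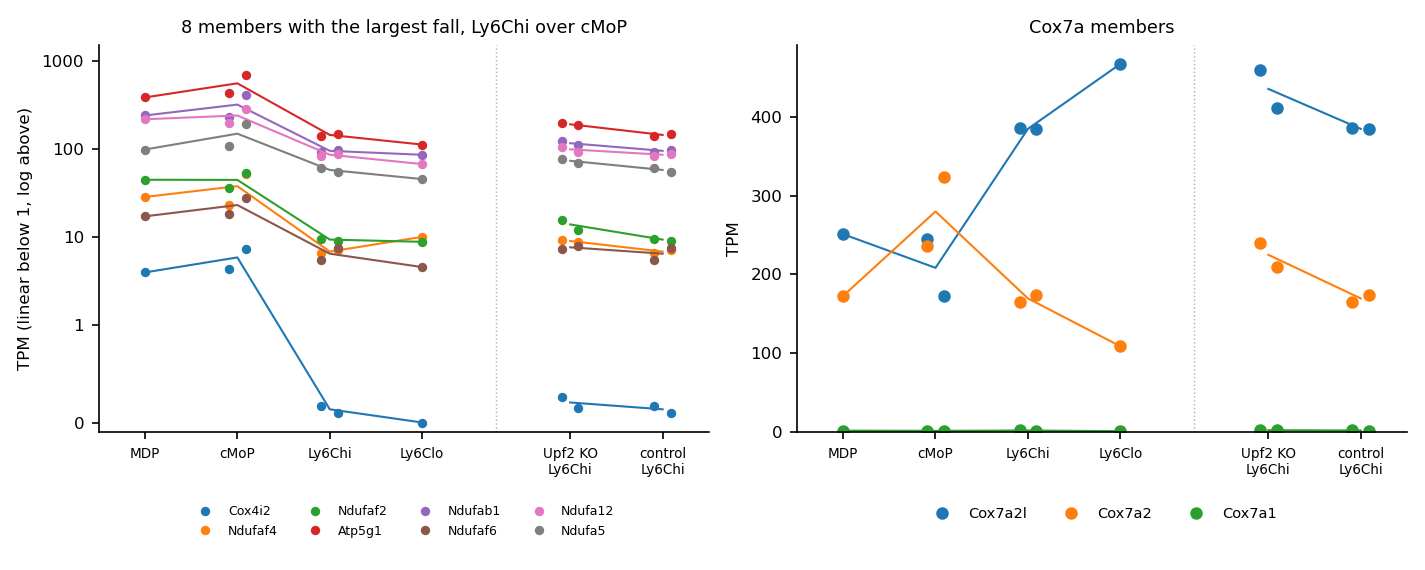
TPM in each library (points, with lines through group means) of the 8 members with the largest falls in Ly6Chi over cMoP, on an axis that is linear below 1 TPM and logarithmic above (left), and of the 3 subunit 7a genes on a linear axis (right). Ndufaf4 stands at 6.59 and 7.01 TPM in Ly6Chi against 23.0 and 52.5 TPM in cMoP, and Cox7a2l at 385 and 384 TPM in Ly6Chi against 244 and 172 TPM in cMoP.

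Of the mitochondrial genes, mt-Nd3 had the largest fall, with 248 and 205 TPM in Ly6Chi against 403 and 609 TPM in cMoP (-1.46 ± 0.31, limma adjusted p = 0.00988). Next came mt-Atp6, with 789 and 511 TPM in Ly6Chi against 1135 and 1178 TPM in cMoP (-1.20 ± 0.25, limma adjusted p = 0.00906). The gene mt-Nd6, the 1 member coded on the other strand of the mitochondrial DNA, fell by 0.79 ± 0.20 (limma adjusted p = 0.0173). Without Ly6Chi replicate 2 these adjusted p were 0.0556 for mt-Nd3, 0.0615 for mt-Atp6 and 0.139 for mt-Nd6 (limma). The call of mt-Nd6 was also lost without centring (-0.45, limma adjusted p = 0.0633), without mitochondrial genes in the scaling (-0.47, limma adjusted p = 0.0593) and after quantile normalisation (-0.085, limma adjusted p = 0.719). The 4 that did not pass were mt-Atp8, mt-Co1, mt-Nd4l and mt-Nd5. The first of these overlaps mt-Atp6, and mt-Nd4l overlaps mt-Nd4, so their reads may be split in ways that were not tested. The gene mt-Co1, the catalytic subunit of complex IV, had 11822 and 8495 TPM in Ly6Chi and 11583 and 7967 TPM in cMoP. Its values overlapped between the groups, and its change of -0.27 ± 0.23 turned to 0.06 without the centring. The size of the medians depends on the centring. Without it the medians were -0.59 for mitochondrial and -0.52 for nuclear members in Ly6Chi over cMoP. The mitochondrial ones turned to -0.31 in cMoP over MDP and -0.12 in Upf2 KO Ly6Chi over Ly6Chi, where the nuclear ones were 0.26 and 0.28. The library medians used for the centring differed by -0.38 in cMoP over MDP, 0.33 in Ly6Chi over cMoP, 0.015 in Ly6Clo over Ly6Chi and -0.20 in Upf2 KO Ly6Chi over Ly6Chi.

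Non-members of up to 1000 bases had a median change of -0.34 in Ly6Chi over cMoP and those over 3000 bases 0.11, while the 64 nuclear members of up to 1000 bases had -0.83 and the 24 longer ones -0.92. The 3′ lean was 0.28 and 0.34 in Ly6Chi and 0.53 and 0.82 in cMoP. The sum of 9 neutrophil markers was 1431 and 1804 TPM in Ly6Chi against 390 and 292 TPM in cMoP. Of these, S100a8 had 579 and 653 TPM in Ly6Chi against 165 and 205 TPM in cMoP. For S100a9 the values were 528 and 723 TPM against 153 and 65.5 TPM. Cxcr2 overlapped, with 0.88 and 1.53 TPM in Ly6Chi and 1.75 and 0.82 TPM in cMoP, and the other markers were higher in both Ly6Chi libraries. The 7 T and NK cell markers summed to at most 2.61 TPM in any library. The part of neutrophils was not tested.

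In Ly6Clo over Ly6Chi, 1 member fell and none rose, where 8.12% of all genes fell and 7.99% rose. It was Cox6b2, the testis isoform of complex IV subunit 6b, with 9.09 TPM in Ly6Clo against 33.5 and 29.1 TPM in Ly6Chi (-1.69 ± 0.28, limma adjusted p = 0.0118). The Ly6Clo library lay below every other library for this gene. Of the 101 members 88 had a negative change, where 6336 of all 13126 genes had one, all read from 1 Ly6Clo library. The medians were -0.40 for nuclear and -0.17 for mitochondrial members beside 0.02 for all genes. An unadjusted p under 0.05 was reached by 11, all negative, or 10.9% of the members, where 14.6% of all genes reached it with a negative and 16.4% with a positive change. Ndufs8, a core iron-sulphur subunit of complex I, had 58.0 TPM in Ly6Clo and 100.1 and 102 TPM in Ly6Chi, and Ndufb5 had 96.6 TPM in Ly6Clo and 199 and 189 TPM in Ly6Chi. In both genes Ly6Clo was the lowest library of the series, though neither passed over all genes. Cox7a2l was highest in Ly6Clo, with 467 TPM against 385 and 384 TPM in Ly6Chi, a difference that did not pass. The count of falls was 49 with only these 2 groups in the fit, 29 after quantile normalisation, 36 without either cMoP replicate and 0 without either Ly6Chi replicate. Shares of all genes under these settings are not given here, so these counts cannot be read as particular to the members. Marker sums also differed. The macrophage list summed to 964 TPM in Ly6Clo against 138 and 133 TPM in Ly6Chi, and the neutrophil list to 4860 TPM in Ly6Clo against 1431 and 1804 TPM in Ly6Chi. Mmp8 of the neutrophil list went the other way, with 28.2 TPM in Ly6Clo against 151 and 145 TPM in Ly6Chi. The part of such cells in the lower levels was not tested.

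In Upf2 KO Ly6Chi over Ly6Chi no member passed the limma test, where 0% of all genes rose and 0.00762% fell. With an unadjusted p under 0.05 there were 16 members, of which 15 had a positive change. These are 15.8% and 14.9% of the members, where 16.9% of all genes had such a p and 8.04% had it with a positive change. The median change was 0.48 for the nuclear members and 0.08 for the mitochondrial ones, beside 0.08 for all genes. On centred values, 83 members were higher in Upf2 KO Ly6Chi without overlap, 80 of them nuclear, and 2 were lower, where 42.9% of all genes were higher and 27.8% lower. In TPM, 74 members were higher without overlap and 9 lower, against 22.8% and 45.5% of all genes. Uqcr10 had 339.6 and 344 TPM in Upf2 KO Ly6Chi against 243 and 231 TPM in Ly6Chi, without overlap. Atp5e, the epsilon subunit of ATP synthase, had 701 and 613 TPM in Upf2 KO Ly6Chi against 470.2 and 479 TPM in Ly6Chi. The lowest members relative to Ly6Chi were mitochondrial, such as mt-Nd4l with 564 and 876 TPM in Upf2 KO Ly6Chi against 1919.6 and 1086 TPM in Ly6Chi. Here non-members of up to 1000 bases had a higher median change, 0.25, than those over 3000 bases, -0.11, and the 3′ lean was 0.77 and 0.53 in Upf2 KO Ly6Chi against 0.28 and 0.34 in Ly6Chi.

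The log2 ratio of the mitochondrial to the nuclear sum stood at 1.67 for MDP, at 1.43 and 0.69 for cMoP, at 1.35 and 1.06 for Ly6Chi and at 1.42 for Ly6Clo. It was lowest in cMoP replicate 2 among these 6 libraries. In Upf2 KO Ly6Chi it was 0.33 and 0.84, below the 1.35 and 1.06 of Ly6Chi. Differences between group means were -0.61 for cMoP over MDP, 0.15 for Ly6Chi over cMoP, 0.22 for Ly6Clo over Ly6Chi and -0.62 for Upf2 KO Ly6Chi over Ly6Chi. They carry no test and stand beside a pooled SD of 0.39 between replicates. Without cMoP replicates 1 and 2 in turn, the difference was -0.98 and -0.24 for cMoP over MDP, and 0.52 and -0.23 for Ly6Chi over cMoP, so that its sign in the second rests on which cMoP library is used. Polyadenylated RNA was selected, so this ratio reads the polyadenylated share of mitochondrial transcripts. With mt-Atp8 left out of the mitochondrial sum, the log2 ratio was 1.05 for MDP, 0.76 and 0.18 for cMoP and 0.85 for Ly6Clo. Likewise it was 0.94 and 0.44 for Ly6Chi and 0.0099 and 0.35 for Upf2 KO Ly6Chi.

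Several subunits have more than 1 gene, and their shares changed along the stages. Atp5g1 gave 25.3% of the c subunit transcripts in MDP, 27.2% and 32.4% in the cMoP libraries, 18.5% and 18.4% in Ly6Chi and 18.97% in Ly6Clo. Atp5g2 gave 38.3% in MDP, 33.0% and 24.8% in the cMoP libraries, 39.1% and 38.4% in Ly6Chi and 42.4% in Ly6Clo. The share of Atp5g1 was thus highest in the cMoP libraries, where that of Atp5g2 was lowest. Cox7a2l made up 59.0% of the subunit 7a family in MDP, 50.6% and 34.7% in the cMoP libraries, 69.7% and 68.5% in Ly6Chi and 80.9% in Ly6Clo, so its share was highest in Ly6Clo and lowest in cMoP. Cox6a2 gave 7.32% of subunit 6a transcripts in MDP and at most 0.262% elsewhere. Cox6b2 gave 8.89% of subunit 6b transcripts in MDP, 5.48% and 2.28% in the cMoP libraries, 6.37% and 5.36% in Ly6Chi and 2.18% in Ly6Clo. Cox4i2 stayed under 1% of subunit 4 transcripts throughout, at 0.554% and 0.824% in cMoP and 0.0247% and 0.0140% in Ly6Chi. In Upf2 KO Ly6Chi the shares of Atp5g1 were 19.4% in each library, and those of Cox7a2l were 65.4% and 66.0%, against 18.5% and 18.4% for Atp5g1 and 69.7% and 68.5% for Cox7a2l in Ly6Chi. These shares are levels and carry no test.

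**Figure D4:**
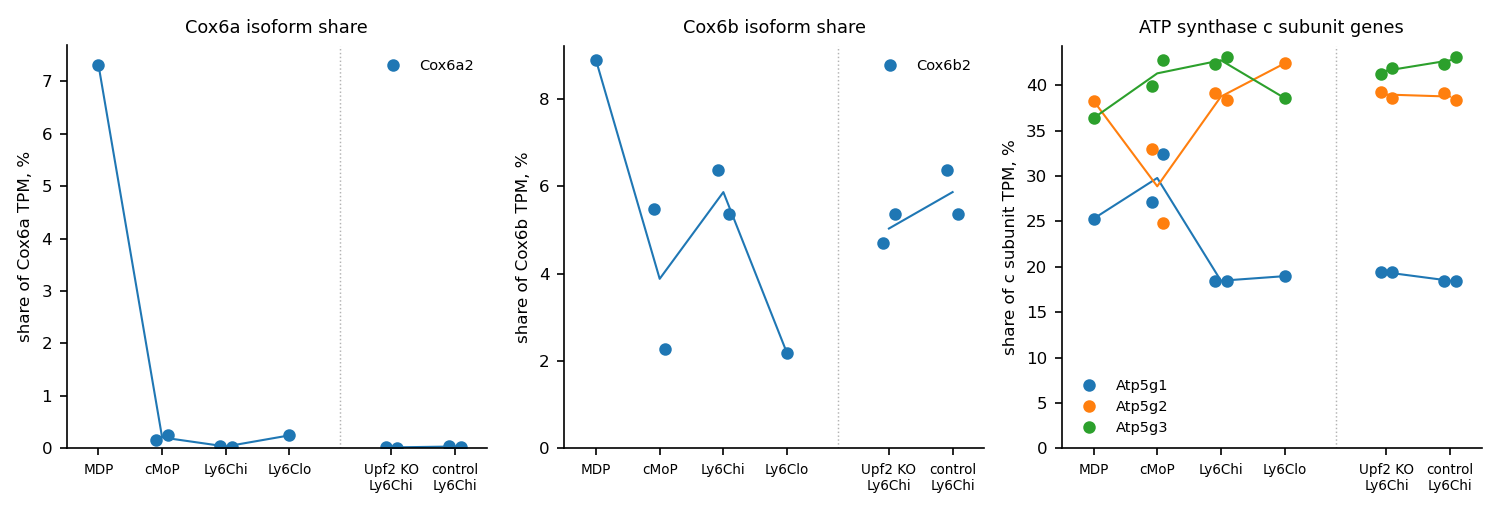
Share of Cox6a2, of Cox6b2 and of the 3 c subunit genes in the summed TPM of their family, in percent, with 1 point per library and lines through group means. The Cox6a2 share is 7.32% in MDP and at most 0.262% elsewhere, and the Atp5g1 share is 27.2% and 32.4% in cMoP against 18.4% to 25.3% in the other libraries.

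To show the promoters behind the members with the largest changes, the 250 bases before the RefSeq start are printed for Ndufaf4 (chr4:24897833-24898082, plus strand), Atp5g1 (chr11:96075632-96075881, minus strand), Ndufaf2 (chr13:108158626-108158875, minus strand) and Cox7a2l (chr17:83514334-83514583, minus strand), from RefSeq, GRCm38.p6. Capitals mark matches to the motifs searched on both strands. The NRF1 motif was searched as GCGCATGCG and that of YY1, a zinc finger factor, as AAGATGGCG. The ETS motif was searched as CCGGAAG. The motif of the factor NFY was taken as CCAAT and the TATA box as TATAAA.
Ndufaf4: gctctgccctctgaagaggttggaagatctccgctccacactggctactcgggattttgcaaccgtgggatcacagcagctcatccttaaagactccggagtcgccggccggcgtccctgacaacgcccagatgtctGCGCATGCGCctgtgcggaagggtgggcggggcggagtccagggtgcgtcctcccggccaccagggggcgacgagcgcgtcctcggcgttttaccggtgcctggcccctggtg
Atp5g1: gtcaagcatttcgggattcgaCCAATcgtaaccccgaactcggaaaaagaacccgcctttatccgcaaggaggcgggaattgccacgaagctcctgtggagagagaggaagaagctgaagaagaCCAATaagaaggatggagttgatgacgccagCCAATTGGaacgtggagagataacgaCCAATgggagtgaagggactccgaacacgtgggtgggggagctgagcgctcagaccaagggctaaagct
Ndufaf2: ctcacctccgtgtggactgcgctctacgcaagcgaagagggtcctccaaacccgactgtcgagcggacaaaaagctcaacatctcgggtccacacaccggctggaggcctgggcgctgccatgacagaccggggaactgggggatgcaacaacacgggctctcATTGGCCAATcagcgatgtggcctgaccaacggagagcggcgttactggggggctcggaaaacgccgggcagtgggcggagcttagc
Cox7a2l: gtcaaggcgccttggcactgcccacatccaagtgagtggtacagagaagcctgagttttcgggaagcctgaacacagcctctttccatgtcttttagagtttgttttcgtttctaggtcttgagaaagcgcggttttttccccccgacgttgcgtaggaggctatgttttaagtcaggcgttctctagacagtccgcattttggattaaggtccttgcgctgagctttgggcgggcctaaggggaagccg
Ndufaf4, which fell, held the NRF1 motif, which reads nearly the same on both strands and so gave overlapping matches on each. Atp5g1 held 5 matches to CCAAT, 2 of them overlapping, and Ndufaf2 held 2. Cox7a2l, which rose, held none in this window, which lies inside the gene as the files annotate it because RefSeq lists a later start. RefSeq gave 80 windows, of 250 bases before and 50 after a start, for 74 of the 101 members, and 32851 windows in all. NRF1 was found in 12.5% of member windows and 1.75% of all windows, ETS in 21.25% and 8.86%, and YY1 in 11.25% and 1.40%. CCAAT was in 42.5% of member windows and 37.4% of all, and TATAAA in 7.5% and 13.6%. In the 250 bases before the start alone, no motif was found for 30 of the 80 member windows. These included the windows of Ndufab1, Cox5a and Ndufv1, which fell in Ly6Chi over cMoP. The windows of Cox4i2, Cox6a2 and Ndufaf6 are not shown, since the RefSeq table used here gave none.

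Other genes of respiration were counted from lists, beside the 34% of all genes that fell and the 25.6% that rose in Ly6Chi over cMoP. In Ly6Chi over cMoP, 29 of 42 tested assembly factors outside the Ndufaf names fell and none rose, with a median of -0.82, and 14 and 16 fell without Ly6Chi replicates 1 and 2 in turn. Among them were Coa7 at -1.87 and Sco2, a copper chaperone of complex IV, at -1.77. Of 16 genes for electron carriers and ubiquinone synthesis 13 fell, with a median of -1.18, and fewer fell without Ly6Chi replicate 1. Cycs, cytochrome c itself, fell by 1.61, Etfb, which feeds electrons from fatty acid oxidation, by 2.17, and Coq4 and Coq7 of ubiquinone synthesis changed by -2.48 and -1.94. In the tricarboxylic acid cycle, which supplies NADH and succinate, 9 of 13 genes fell (median -0.93), among them Idh3a at -2.25 and Suclg2 at -1.86. Of 18 genes that express the mitochondrial DNA 12 fell (median -0.78), including Ssbp1, the single-strand binding protein, at -1.43, and Slirp, an RNA stabiliser, at -1.44. Polg, the mitochondrial DNA polymerase, rose by 0.54 ± 0.13 (limma adjusted p = 0.0152). It had 59.2 and 55.0 TPM in Ly6Chi against 36.2 and 25.9 TPM in cMoP. Without Ly6Chi replicates 1 and 2 in turn, 4 and 5 genes of the cycle fell, 6 and 6 of mitochondrial DNA expression, and the limma adjusted p was 0.117 and 0.0972 for Polg and 0.0642 and 0.0548 for Slirp. Cycs had 0.0677 without replicate 1.

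Of 9 tested regulators of mitochondrial genes 4 fell and 1 rose in Ly6Chi over cMoP, with a median of -0.14 that equals the -0.14 of all genes, of which 34% fell. Without centring 2 of them fell. Myc, a growth regulator that binds many such genes, had 7.39 and 6.68 TPM in Ly6Chi against 116 and 148 TPM in cMoP, and fell by 4.38. Pprc1 and Ppargc1b, coactivators of NRF1 target genes, fell by 1.36 and 0.79. Without centring, Ppargc1b was -0.46 (limma adjusted p = 0.0801). Gabpb2, a partner of the ETS factor Gabpa, rose by 0.87 ± 0.21 (limma adjusted p = 0.0157, and 0.0990 and 0.0501 without Ly6Chi replicates 1 and 2 in turn). In the other comparisons Etfb rose in cMoP over MDP (1.16 ± 0.23, limma adjusted p = 0.0484), with 460.5 and 478 TPM in cMoP against 274 TPM in MDP, a call that was lost without any single Ly6Chi or Upf2 KO Ly6Chi library (limma adjusted p 0.117 to 0.140). The assembly factor Cmc2 fell in Ly6Clo over Ly6Chi (-1.66, limma adjusted p = 0.0227), and had an adjusted p of 0.0876 and 0.0984 without Ly6Chi replicates 1 and 2 in turn and of 0.0583 and 0.0585 without Upf2 KO Ly6Chi replicates 1 and 2. No other gene of these lists passed in cMoP over MDP or in Ly6Clo over Ly6Chi, and none passed in Upf2 KO Ly6Chi over Ly6Chi.

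Intron retention was read from boundary reads, which cross from exon to intron, relative to spliced reads. The 8 tables share 449 introns of 88 members, and 371 introns of 84 members had enough reads to test among 58487 in all. No member intron passed in any comparison (edgeR quasi-likelihood, Benjamini-Hochberg). Over all introns 0% passed in cMoP over MDP, 0.0171% in Ly6Chi over cMoP, 0% in Ly6Clo over Ly6Chi and 0.00513% in Upf2 KO Ly6Chi over Ly6Chi. Member introns with an unadjusted p under 0.05 numbered 49 in cMoP over MDP (4 positive), 65 in Ly6Chi over cMoP (all positive), 54 in Ly6Clo over Ly6Chi (51 positive) and 21 in Upf2 KO Ly6Chi over Ly6Chi (none positive). In the same order these are 13.2%, 17.5%, 14.6% and 5.66% of the member introns tested, beside 8.21%, 11.6%, 5.03% and 6.79% of all introns tested. DESeq2 gave 0 in each comparison. Without cMoP replicate 1, which leaves 1 cMoP library, edgeR called member introns in cMoP over MDP and in Ly6Chi over cMoP. The share of all introns called in that fit is not given here. Median changes of the members were -0.47, 0.49, 0.47 and -0.22 in that order of comparisons, beside -0.40, 0.40, 0.13 and -0.30 for all introns tested.

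The deposited retention ratio, intron coverage over the sum of that coverage and the spliced reads, was low in members. Each library had at least 10 spliced reads at 432 member introns. A ratio of at least 0.1 was reached by 9 in MDP, 8 and 3 in the cMoP libraries, 11 and 7 in Ly6Chi, and 24 in Ly6Clo. That is 2.08% in MDP and 5.56% in Ly6Clo, where the shares of all 93447 such introns were 6.90% in MDP and 9.41% in Ly6Clo. In Upf2 KO Ly6Chi 4 and 6 member introns reached it, against 11 and 7 in Ly6Chi, and of all introns 4.21% and 4.93% in Upf2 KO Ly6Chi against 7.07% and 6.72% in Ly6Chi. The median member ratio was 0.0110 in Ly6Clo against 0.00613 and 0.00486 in Ly6Chi, the highest of the series, and was 0.00274 and 0.00320 in Upf2 KO Ly6Chi. Of those 24 in Ly6Clo, 14 introns of 9 genes reached the ratio in no other library. All of these genes code for subunits or assembly factors of complex I, 5 of the 9 for assembly factors, with Ndufaf7 holding 3 and Ndufab1, Ndufs1 and Ndufv1 holding 2 each. They were not called by the test, and Ly6Clo has 1 library. The share of all introns that reached the ratio in Ly6Clo alone was not counted. Introns of other complexes were also higher in Ly6Clo but stayed under 0.1. Intron 9 of Atp5c1 had 0.0918 in Ly6Clo against 0.0481 and 0.0389 in Ly6Chi. For intron 12 of Uqcrc1 the ratios were 0.0801 against 0.0395 and 0.0405. Of the 371 member introns tested, 292 had a positive change in Ly6Clo over Ly6Chi and 79 a negative one. Ly6Clo also had the highest share over all introns, 9.41%. Of the 24, 19 were marked neither as known exons nor as overlapped by antisense genes.

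**Figure D5:**
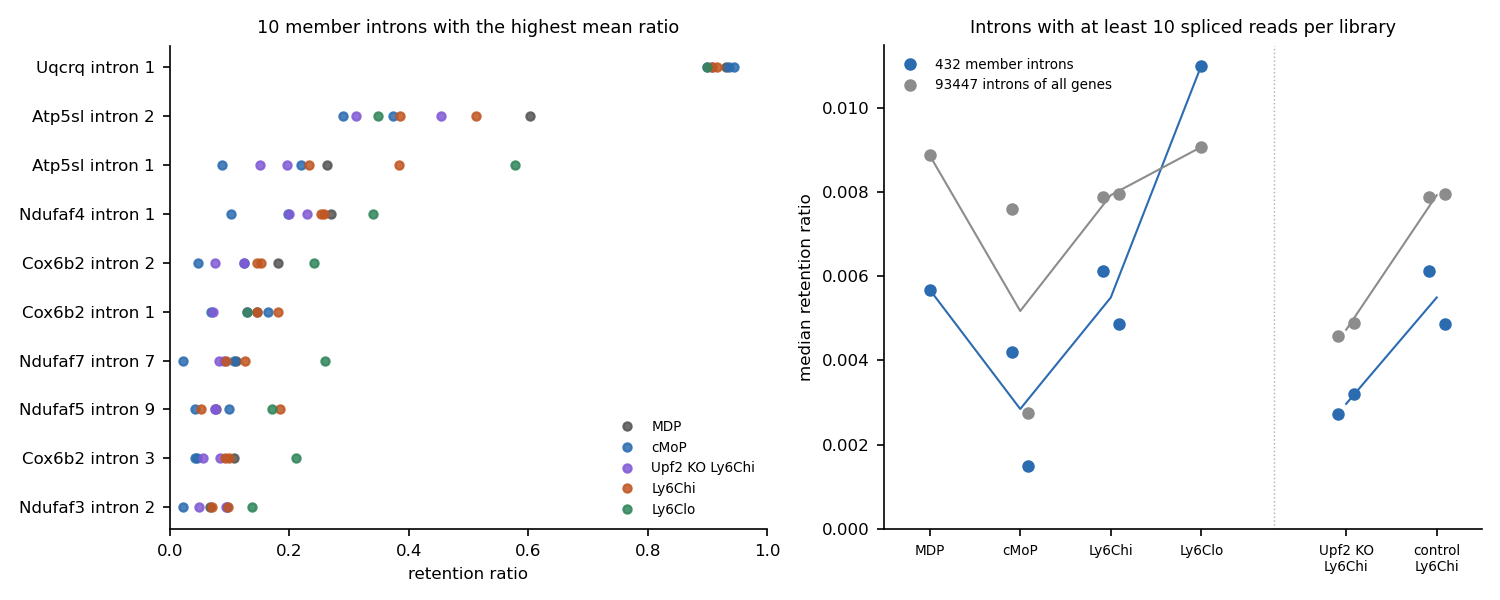
Retention ratio in each library (points) of the 10 member introns with the highest mean ratio (left), and the median ratio of the 432 member introns and of 93447 introns of all genes by library, with lines through group means (right). The member median is highest in Ly6Clo, at 0.0110, where that of all introns is 0.00906, and lowest in cMoP replicate 2, at 0.00151.

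Introns of 3 members reached 0.1 in every library. Intron 1 of Uqcrq (chr11:53430703-53430787, mm10), which lies in the 5′ untranslated part and is marked as a known exon, had a mean ratio of 0.917. Intron 1 of Ndufaf4 (chr4:24898303-24898572), also marked as a known exon, had 0.341 in Ly6Clo against 0.258 and 0.254 in Ly6Chi, and a mean of 0.232. Intron 2 of a processed transcript of Atp5sl (chr7:25621513-25621972) had a mean of 0.410. Neither intron marked as a known exon was tested. Intron 1 of Atp5sl (chr7:25620465-25620895) had a ratio of 0.578 in Ly6Clo against 0.383 and 0.233 in Ly6Chi, and 0.197 and 0.151 in Upf2 KO Ly6Chi. Ly6Clo was the highest library for this intron, on 81 and 74 boundary reads and 52 spliced reads, without passing the test (edgeR adjusted p = 0.937). Intron 7 of Ndufaf7 (chr17:78943945-78944940) had 0.260 in Ly6Clo against 0.0944 and 0.126 in Ly6Chi. The lowest adjusted p among member introns was 0.376, in Ly6Chi over cMoP, where intron 13 of Sdha (chr13:74323955-74326926) had ratios of 0.0468 and 0.0458 in Ly6Chi against 0.0210 and 0.00824 in cMoP. Both Ly6Chi values were above both cMoP values, without passing.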

How the data were processed

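Polyadenylated RNA of 8 libraries in 5 groups was prepared as strand-specific libraries, per the labels' protocols. FastQC, Trimmomatic, STAR 2.5.2a and RSEM were used, and mm10 and hg38 are listed as builds, per the submitters' processing notes. The deposited expression table is named for FPKM, but its columns each sum to 1000000 but for rounding, so its values were treated as TPM. The authors deposited 1 intron table per library, made by a program that is not given in the sources used here. These deposited tables hold whole-number counts of reads across each intron boundary and of spliced reads, a deposited signal that is the mean coverage of the intron, and a deposited fraction that is the retention ratio.

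Expression was compared with limma 3.58.1 (R 4.3.3, trend) on log2(TPM + 1), centred on each library's median, over the 13126 genes that reached 1 TPM in 2 or more libraries. Without counts, the depth behind TPM is unknown. Retention was compared with edgeR 4.0.16, with DESeq2 1.42.0 as an alternative, on boundary counts relative to spliced counts, for introns with at least 20 reads of both kinds together in every library and 20 boundary reads in all. Introns that the tables flag as known exons or as overlapped by antisense genes were not tested. Each fit used all 8 libraries with a common estimate of the spread, so that the lone MDP and Ly6Clo libraries are assumed to vary like the others. Both steps were tested on simulated data.

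Members and gene lists were chosen with earlier results of these data known, and no list supports a direction by itself. Named are the members with the largest called changes (up to 8 each way), a set of core subunits and isoform families, all mitochondrial members, the 10 introns with the highest mean ratio, and up to 4 called genes per other list. A member that this rule also selects is not reported here. Ndufaf1, Ndufaf3, Ndufaf5, Ndufaf7, Ndufa6, Ndufb5, Ndufs8, Sdhc, Sdhd, Uqcr10, Uqcr11, Atp5c1, Atp5e, Atp5s, Atp5sl, Cycs and intron 13 of Sdha were named after their values were seen. Alternatives tried were other scalings, pseudocounts and filters, fits of only the groups compared, a replicate block and leaving out each replicate.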

Additional observations from a re-analysis of the deposited data

How the results depend on the processing

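The count of members that fell in Ly6Chi over cMoP (74) ranged from 21 to 90 when 1 replicate was left out, and was within 1.5 times the reported count under the other alternatives. For the other expression counts the ranges on leaving out 1 replicate were 0 to 79 risen members and 1 to 2 fallen members in cMoP over MDP, 0 to 1 risen members in Ly6Chi over cMoP, and 0 to 1 risen and 0 to 36 fallen members in Ly6Clo over Ly6Chi. For member introns called they were 0 to 58 in cMoP over MDP, 0 to 90 in Ly6Chi over cMoP, 0 to 9 in Ly6Clo over Ly6Chi and 0 to 2 in Upf2 KO Ly6Chi over Ly6Chi. The highest counts in cMoP over MDP and Ly6Chi over cMoP came without cMoP replicate 1, where 1 library is left and assumed to vary like the other groups. Shares of all genes and introns called in these fits are not given here, so the ranges cannot be read as particular to the members.

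Without centring, 3 members rose in Ly6Chi over cMoP and 13 fell in Ly6Clo over Ly6Chi, 5 were higher without overlap in Ly6Chi over cMoP, and 9 were lower without overlap in Upf2 KO Ly6Chi over Ly6Chi. With mitochondrial genes left out of the scaling these were 3, 12, 5 and 10. After quantile normalisation 2 members fell in cMoP over MDP, 1 rose and 29 fell in Ly6Clo over Ly6Chi, 5 were higher without overlap in Ly6Chi over cMoP and 7 lower in Upf2 KO Ly6Chi over Ly6Chi. With no filter on low values 4 rose in cMoP over MDP and 17 fell in Ly6Clo over Ly6Chi, and with 1 TPM required in every library 0 fell in cMoP over MDP. With only the groups compared in the fit, 1 rose and 49 fell in Ly6Clo over Ly6Chi, and 17 introns were called there and 1 in Upf2 KO Ly6Chi over Ly6Chi. Scaling boundary and spliced counts apart called 2 introns in Ly6Chi over cMoP and 1 in Ly6Clo over Ly6Chi. No filter on counts called 1 in cMoP over MDP, 10 in Ly6Chi over cMoP and 1 in Ly6Clo over Ly6Chi. The cause of these shifts was not tested.

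In Ly6Chi over cMoP some members turned positive, most of them from a change that had not passed. Cox6b2 was 0.29 without centring, 0.27 without mitochondrial genes in the scaling, 0.14 with no filter, 0.025 with 1 TPM in every library, and -0.36 to 0.28 on leaving out 1 replicate. Cox7a1 was 0.21, 0.20 and 0.055 under the first 3 of these and -0.30 to 0.052 on leaving out 1 replicate. Under the first 2, mt-Co1 was 0.061 and 0.040, and mt-Nd4l was 0.25 and 0.23. Quantile normalisation gave 0.33 for mt-Co1, 0.012 for mt-Nd4, which had fallen by 0.77, 0.39 for mt-Nd4l and 0.077 for mt-Nd5. The gene mt-Nd4l was also 0.10 with no filter and -0.46 to 0.30 on leaving out 1 replicate. Over 87 single-member results, 1053 of 1298 values under alternatives kept direction and call, 210 lost the call, 14 gained one and 21 turned sign.

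Whether replicate numbers pair the samples is not stated. Deviations of same-numbered libraries correlated at 0.06 (cMoP and Ly6Chi), -0.14 (cMoP and Upf2 KO Ly6Chi) and -0.13 (Ly6Chi and Upf2 KO Ly6Chi). This cannot decide it, since each group gives a single difference between its replicates. With a replicate block 61 members fell and 0 rose in Ly6Chi over cMoP, and no member was called in Upf2 KO Ly6Chi over Ly6Chi. With the knockout numbers crossed, added after seeing the data, 82 fell. The mitochondrial over nuclear difference on leaving out 1 replicate ran from -0.98 to -0.24 in cMoP over MDP, from -0.23 to 0.52 in Ly6Chi over cMoP, from 0.071 to 0.36 in Ly6Clo over Ly6Chi and from -0.87 to -0.37 in Upf2 KO Ly6Chi over Ly6Chi. MDP and Ly6Clo have 1 library each, the depth behind TPM is unknown, and introns with few boundary reads limit the retention test.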

Other observations

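Genes that share the catalytic head of the ATP synthase kept unequal levels, a point chosen after the values were seen. The head holds equal numbers of alpha (Atp5a1) and beta (Atp5b) subunits around gamma (Atp5c1). The TPM ratio of Atp5b to Atp5c1 stood at 2.78 for MDP, at 3.21 and 3.92 for cMoP, at 1.62 and 1.71 for Ly6Chi and at 1.79 for Ly6Clo. The ratio of Atp5a1 to Atp5c1 stood at 1.85 for MDP, at 2.01 and 1.85 for cMoP, at 1.35 and 1.32 for Ly6Chi and at 1.44 for Ly6Clo. Both ratios were higher in the 3 progenitor libraries than in the monocyte libraries. The ratio of Atp5d, the delta subunit of the stalk, to Atp5c1 ran otherwise, at 0.861 for MDP, 0.767 and 0.772 for cMoP, 0.604 and 0.659 for Ly6Chi and 0.956 for Ly6Clo, where it was highest. In Upf2 KO Ly6Chi the ratio of Atp5b to Atp5c1 was 2.23 and 2.02 against 1.62 and 1.71 in Ly6Chi, that of Atp5a1 to Atp5c1 was 1.42 and 1.44 against 1.35 and 1.32, and that of Atp5d to Atp5c1 was 0.827 and 0.809 against 0.604 and 0.659. These ratios carry no test.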
